A study of Saccharomyces cerevisiae with 10 samples.

Results

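The comparison described here asks what the evolved allele of MKT1 does to messenger RNA levels in budding yeast that already carry the evolved allele of MDS3. It sets 2 arrays of the genotype MDS3e MKT1e against 2 arrays of the genotype MDS3e, which are 4 of the 10 arrays in the series, and each array read RNA from a culture of its own labelled as a biological replicate. The letter e marks an evolved allele, and every strain was haploid, belonged to the Sce3044 background and was free of the other evolved alleles. MDS3e MKT1e carries the evolved alleles of MDS3 and MKT1, and MDS3e carries that of MDS3 with MKT1 in its ancestral form. To ask whether MDS3e alters the effect of MKT1e, MKT1e (evolved MKT1, ancestral MDS3) was also compared with Ancestral, the strain with no evolved allele, at 2 arrays each. The remaining genotype, PMA1e MKT1e, entered only the estimate of the spread. All cultures started from rich medium and grew in a defined medium with no amino acids that held yeast nitrogen base, uracil and 0.25% dextrose, to an optical density at 600 nm of about 0.2, which took about 17 h. The number of independent strain isolates behind a genotype was not stated in what was read, so each genotype is taken as the labelled strain. An effect of an allele therefore cannot be told apart from other differences between the labelled strains.

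MKT1 encodes a protein that acts after transcription: it binds Pbp1, which associates with the tails of mRNAs, and the pair is needed for normal expression of HO, the endonuclease of mating-type switching. Mkt1 has also been linked genetically to Puf3, an RNA-binding protein that recognises mRNAs of many nuclear genes for mitochondrial proteins, above all those of the mitochondrial ribosome. Natural alleles of MKT1 are known to affect mitochondrial function, sporulation and growth under stress. MDS3 encodes a regulator of nutrient signalling that restrains the start of meiosis. Pma1 pumps protons out of the cell.

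Values are log2 of the array intensity plus 16, called log2 levels below, and a difference is the mean of the MDS3e MKT1e arrays minus the mean of the MDS3e arrays, ± its standard error, with n = 2 arrays each. A gene was called when limma's two-sided p, adjusted by the Benjamini-Hochberg method over all 5449 genes, was under 0.05. A difference of 1 is a 2-fold change of the intensity plus 16, which understates the change of dim genes. Between 5335 and 5355 genes were above the background limit of 4.20 on each of the 4 arrays, and none of the 60 genes below it on all 4 was called. The number of arrays limits the precision: the median standard error of a difference was 0.07, and the median SD between replicates was 0.05 in MDS3e MKT1e cells and 0.04 in MDS3e cells. Replicates correlated across genes with Pearson's r of 0.997 for MDS3e MKT1e and 0.998 for MDS3e, while arrays of the different genotypes gave 0.989 to 0.991. Of 6 genes that mark mating type a, 5 had mean log2 levels between 8.83 and 10.65 in MDS3e MKT1e cells and between 8.84 and 10.69 in MDS3e cells, STE2, the receptor for alpha factor, being the highest, while ASG7 was at 6.41 in MDS3e MKT1e cells and 6.36 in MDS3e cells. The alpha-specific pheromone gene MF(ALPHA)1 was near the background limit, at 4.14 in MDS3e MKT1e cells and 4.32 in MDS3e cells. Of the other alpha-specific genes, MF(ALPHA)2 was also near the limit, at 4.36 in MDS3e MKT1e cells and 4.34 in MDS3e cells. STE3 and SAG1 were further above it, at 5.35 and 6.51 in MDS3e MKT1e cells and at 5.46 and 6.53 in MDS3e cells.

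One stretch of chromosome III stood apart in the MDS3e MKT1e arrays and touches several genes named below. From MAK32 to RHB1, ends chosen after the values had been seen, 9 of 11 neighbouring genes were lower in MDS3e MKT1e than in MDS3e cells. The values are given near the end.

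The evolved genes themselves came first. MKT1 had log2 levels of 8.80 and 8.81 in MDS3e MKT1e cells, against 9.04 and 9.02 in MDS3e cells. The groups did not overlap, but the difference of -0.22 ± 0.11 did not pass the test (adjusted p = 0.18). Between MKT1e and Ancestral the difference was -0.35 ± 0.11 and did pass (adjusted p = 0.039), with 8.65 and 8.51 in MKT1e and 9.13 and 8.73 in Ancestral cells. Whether the probes read the evolved and ancestral alleles equally was not tested. MDS3, which is evolved in both genotypes, was at 7.85 and 7.93 in MDS3e MKT1e cells and at 7.85 and 7.81 in MDS3e cells, and PMA1 was at 10.76 on both MDS3e MKT1e arrays, against 10.80 and 10.86 in MDS3e cells. Neither passed the test, with adjusted p = 0.54 for MDS3 and 0.42 for PMA1. Of the partners of Mkt1, PBP1 differed by 0.15 ± 0.06 (adjusted p = 0.089), and PUF3 had overlapping levels of 6.13 and 5.99 in MDS3e MKT1e cells and 6.14 and 5.99 in MDS3e cells. HO had log2 levels of 9.06 and 8.94 in MDS3e MKT1e cells, against 8.60 and 8.54 in MDS3e cells. It rose by 0.43 ± 0.07 (adjusted p = 0.0023), close to the difference of 0.41 between MKT1e and Ancestral.

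Across the genome, 597 genes (11% of those tested) were higher in MDS3e MKT1e than in MDS3e cells and 340 (6.24%) were lower, 937 (17.2%) in all. Counts of list members given below are to be read beside these shares. Most changes were small: the median difference was 0.35 among the genes that rose and -0.28 among those that fell, and 15 called genes reached 2-fold, 9 of them higher and 6 lower. In each of the 937 both MDS3e MKT1e arrays lay on 1 side of both MDS3e arrays, as they also did for 28.9% of all genes above and 32.1% below, whether called or not. Higher calls made up 63.7% of the total, and 51.3% (515 higher and 489 lower) when each array was centred on its median, so the balance of directions depends on the scaling. The counts rest on all 4 arrays: 380 genes were higher and 151 lower without MDS3e replicate 1, 329 and 132 without MDS3e replicate 2, 374 and 172 without MDS3e MKT1e replicate 1, and 430 and 212 without MDS3e MKT1e replicate 2. A gene named below as having risen or fallen kept its call whichever of these 4 arrays was left out, unless its own paragraph says that it did not.

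The largest rises named a membrane protein, a nitric oxide enzyme and mitochondrial genes. YRO2, which encodes a membrane protein of the Hsp30 family induced by weak acid stress, had log2 levels of 7.04 and 6.83 in MDS3e MKT1e cells, against 5.07 and 4.92 in MDS3e cells, a rise of 1.94 ± 0.12 (adjusted p = 7.0e-06). YHB1, the flavohaemoglobin that detoxifies nitric oxide, stood at 10.10 and 10.12 in MDS3e MKT1e cells and at 8.87 and 8.92 in MDS3e cells, and rose by 1.22 ± 0.08. Both genes were thus far apart between the genotypes relative to their replicates. CYC1, the main aerobic cytochrome c, had 10.01 and 9.93 in MDS3e MKT1e cells and 8.77 and 8.82 in MDS3e cells, a rise of 1.18 ± 0.08. Between YRO2 and YHB1 in size came YER053C-A, a small gene with no name in the annotation used, with a rise of 1.27 ± 0.10. Of the other 8 among the 12 largest rises, 6 act in mitochondrial translation or respiratory assembly. They were MRPL4 and RSM28 of the mitochondrial ribosome (1.12 and 0.98), the tyrosyl-tRNA synthetase gene MSY1 (1.06), the elongation factor gene MEF1 (1.02), the tRNA modification gene MTO1 (1.02) and PET117 (1.10), which is needed to assemble cytochrome c oxidase. The small heat shock protein gene HSP26 and the little characterised gene AIM33 rose by 0.99 each.

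The largest falls were led by guanine nucleotide synthesis, permeases and the allantoin pathway. IMD2 encodes an IMP dehydrogenase, the enzyme that commits purines to guanine nucleotides, and its probe set may read its close relatives as well. It had log2 levels of 6.65 and 6.68 in MDS3e MKT1e cells, against 8.69 and 8.35 in MDS3e cells, and fell by 1.86 ± 0.10 (adjusted p = 5.1e-06). DIP5, the permease for glutamate and aspartate, had 5.67 and 5.95 in MDS3e MKT1e cells and 7.40 and 7.52 in MDS3e cells, and fell by 1.65 ± 0.18 (adjusted p = 0.00012). The oligopeptide transporter gene OPT2 fell by 1.25 ± 0.08, with 5.23 and 5.34 in MDS3e MKT1e cells and 6.58 and 6.49 in MDS3e cells. ADH2, the alcohol dehydrogenase that consumes ethanol, averaged 4.98 in MDS3e MKT1e cells, against 6.32 and 6.12 on the MDS3e arrays, and fell by 1.24 ± 0.07. In all of these the MDS3e MKT1e arrays were the lower pair with no overlap. PDH1, which acts in the breakdown of propionate, fell by 0.95 ± 0.07. YAR009C, an open reading frame of a Ty element whose probe set reads many copies, fell by 0.99 ± 0.28 (adjusted p = 0.036), but it lost its call whichever of the 4 arrays was left out. The other 6 of the 12 largest falls are described with their groups: DAL5, DAL4, DAL7, DAL80 and PTR2 with nitrogen use, and MAK31 with chromosome III.

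**Figure D1:**
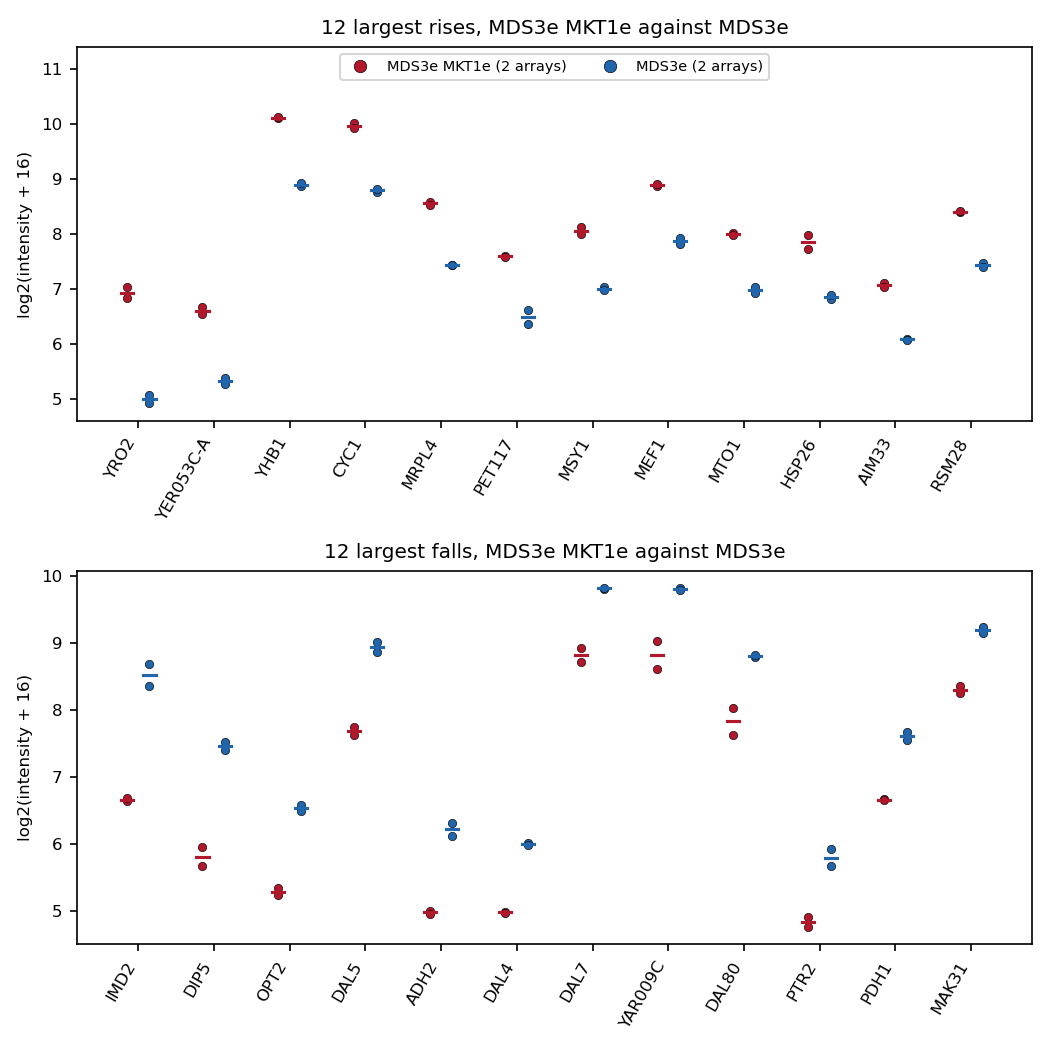
Log2 levels, log2(intensity + 16), of the 12 genes with the largest rises (top) and the 12 with the largest falls (bottom), with MDS3e MKT1e left of MDS3e for each gene. Points are arrays and bars are means of 2 arrays. No gene has overlapping groups, and YRO2 shows the largest rise (1.94) and IMD2 the largest fall (-1.86).

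Many nuclear genes for mitochondrial proteins rose. The 8 mitochondrial lists, from the ribosome to protein import, held 243 measured genes, of which 181 rose, COX5B fell and 61 did not pass the test. Their median difference was 0.42, against -0.01 over all 5449 genes, and they supplied 30.3% of all genes that rose. Of the 181, 133 kept their call whichever of the 4 arrays was left out. The same pattern was already visible for MKT1e without MDS3e, where 189 of the 243 were higher than in Ancestral and 2 lower, with a median of 0.47.

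Ribosomal proteins of the mitochondrion rose almost throughout. All 42 measured genes of the large subunit rose, by 0.33 to 1.12 with a median of 0.66, and 31 of 33 of the small subunit rose, with a median of 0.62. MRPL4, a large subunit protein, had log2 levels of 8.59 and 8.53 in MDS3e MKT1e cells, against 7.44 and 7.43 in MDS3e cells. RSM28, of the small subunit, had 8.40 and 8.41 in MDS3e MKT1e cells and 7.47 and 7.39 in MDS3e cells. The gap between genotypes in these genes was many times the gap between replicates. MRPL15, MRPL19 and MRPL24 rose by 0.96, 0.94 and 0.94, and MRPS35, RSM24 and MRP4 by 0.92, 0.89 and 0.87. MRP2 and KGD4 did not pass the test: MRP2 was 0.36 higher (adjusted p = 0.067) and KGD4, which was listed with the small subunit and is also described as a subunit of the 2-oxoglutarate dehydrogenase complex, 0.16 higher (adjusted p = 0.11). Of the 73 ribosomal genes that rose, 66 kept their call whichever of the 4 arrays was left out. Genes of the cytosolic ribosome were nearly all uncalled. Of 75 large subunit genes 1 fell and none rose, and of 52 small subunit genes none was called, so that only RPL39 passed the test, at -0.20 ± 0.06, and it lost that call whichever of the 4 arrays was left out.

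Factors that translate mitochondrial mRNAs rose with the ribosome. Of 41 measured translation factors, tRNA synthetases and mRNA-specific activators, 32 rose and none fell, with a median of 0.44. MEF1, the elongation factor that moves the ribosome along the message, had 8.88 and 8.90 in MDS3e MKT1e cells, against 7.92 and 7.81 in MDS3e cells. MSY1 averaged 8.06 in MDS3e MKT1e cells and had 7.04 and 6.97 in MDS3e cells. Neither gene overlapped between the genotypes. RRF1, the factor that recycles ribosomes, rose by 0.83 ± 0.06, the initiation factor gene IFM1 by 0.80 and the elongation factor gene TUF1 by 0.40, the call of TUF1 being kept in 2 of the 4 runs with an array left out. SLM5, the mitochondrial asparaginyl-tRNA synthetase, was among the 9 that did not pass, at -0.08 ± 0.05, and lies within the stretch of chromosome III. With each of the 4 arrays left out in turn, 25 to 28 of this list rose.

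Assembly factors of the respiratory complexes rose as well. Of 42 assembly genes 34 rose and none fell, with a median of 0.49. PET117 had log2 levels of 7.60 and 7.59 in MDS3e MKT1e cells, against 6.62 and 6.36 in MDS3e cells, and COX10, which acts in making the heme A of cytochrome oxidase, had 7.76 and 7.74 in MDS3e MKT1e cells and 6.81 and 6.76 in MDS3e cells. ATP12, an assembly factor of the ATP synthase, had 8.86 and 8.67 in MDS3e MKT1e cells and 7.85 and 7.82 in MDS3e cells. In all of these the genotypes lay further apart than the replicates, with rises of 1.10, 0.97 and 0.93. The SD between replicates was 0.19 for PET117 in MDS3e cells and 0.13 for ATP12 in MDS3e MKT1e cells, above the median SDs over genes. COA2, another cytochrome oxidase assembly gene, rose by 0.87 and BCS1, which inserts the Rieske protein into complex III, by 0.86.

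Among the electron carriers themselves, 13 of 19 genes for NADH dehydrogenases, complex II, complex III and cytochrome c rose and none fell, with a median of 0.35. NDI1, the internal NADH dehydrogenase, had 9.04 and 8.94 in MDS3e MKT1e cells, against 8.17 and 8.21 in MDS3e cells, and rose by 0.80 ± 0.08. SDH2, the iron-sulfur subunit of complex II, rose by 0.58 ± 0.06, with 10.05 on both MDS3e MKT1e arrays and 9.43 and 9.51 in MDS3e cells. CYT1, cytochrome c1 of complex III, rose by 0.58 and RIP1, the Rieske protein, by 0.57. Only 2 of 9 nuclear subunits of cytochrome oxidase rose, COX6 by 0.30 and COX5A by 0.24, and the hypoxic isoform COX5B fell by 0.34. COX5A had 10.18 on both MDS3e MKT1e arrays against 9.89 and 9.99 in MDS3e cells. COX5B had 8.44 and 8.49 in MDS3e MKT1e cells against 8.92 and 8.70 in MDS3e cells. Of 17 ATP synthase genes 6 rose, ATP20 the most at 0.35 ± 0.07. Each of the 9 calls in these last 2 lists was lost without some of the 4 arrays, which left 0 or 1 oxidase genes and 0 to 4 ATP synthase genes higher. The electron carrier list kept 9 to 11 higher in the same runs. Many of these genes are very bright, and under quantile normalization the list medians were larger: 0.43 for the electron carriers, 0.29 for the oxidase and 0.24 for the ATP synthase.

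Import and folding of mitochondrial proteins depend on translocases, motors and peptidases. Of 40 such genes 21 rose and none fell, with a median of 0.20, and 7 to 11 rose when 1 of the 4 arrays was left out. PAM18, of the import motor, rose by 0.51 ± 0.06, with 8.96 and 8.88 in MDS3e MKT1e cells against 8.36 and 8.45 in MDS3e cells. MAS1, a subunit of the processing peptidase, rose by 0.47. MIA40, which oxidises proteins imported into the intermembrane space, and MAS2 rose by 0.48 and 0.41, but each kept its call in 1 of the 4 runs with an array left out. Metabolite carriers were mixed: 11 of 26 rose and 1 fell. RIM2, a pyrimidine nucleotide carrier, rose by 0.60 ± 0.06 and the flavin carrier gene FLX1 by 0.59 ± 0.09. DIC1, the dicarboxylate carrier, went the other way, with 8.07 and 8.09 in MDS3e MKT1e cells against 8.95 and 8.84 in MDS3e cells, a fall of 0.82 ± 0.06. With an array left out, 6 to 10 carriers were higher and DIC1 alone was lower.

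The tricarboxylic acid cycle showed no common direction. Of 22 genes, KGD1 and KGD2 of the 2-oxoglutarate dehydrogenase rose by 0.26 each, the pyruvate carboxylase gene PYC1 and the succinyl-CoA ligase gene LSC2 fell by 0.35 and 0.27, and 18 were not called. The median was -0.05, and 9.09% of the list rose and 9.09% fell, against 11% and 6.24% of all genes tested. Only PYC1 kept its call whichever of the 4 arrays was left out. CIT1, the mitochondrial citrate synthase, was at 10.61 and 10.55 in MDS3e MKT1e cells and at 10.68 and 10.72 in MDS3e cells, a difference of -0.12 ± 0.06 that did not pass (adjusted p = 0.23).

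Heme is the cofactor of the cytochromes and reports oxygen to gene regulators such as Hap1. Of 28 genes of heme synthesis and of heme or oxygen control, 14 rose and none fell, with a median of 0.20, and 7 to 12 rose with 1 of the 4 arrays left out. YHB1 led them. CYT2 and CYC3, which attach heme to cytochrome c1 and cytochrome c, rose by 0.92 ± 0.07 and 0.74 ± 0.06. CYT2 had 8.68 and 8.59 in MDS3e MKT1e cells, against 7.64 and 7.80 in MDS3e cells. HEM1, HEM2, HEM3 and HEM4, early enzymes of the pathway, rose by 0.39, 0.30, 0.38 and 0.23. The regulator genes HAP2 and HAP5, whose products form part of the activator of respiratory genes, rose by 0.31 and 0.28. The calls of HEM1 and HEM2 were kept in 3 of the 4 runs with an array left out, and those of HEM4, HAP2 and HAP5 in 1. HAP4, its activating subunit, was 0.21 higher without passing (adjusted p = 0.084), and HAP1 differed by -0.07 (adjusted p = 0.43).

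**Figure D2:**
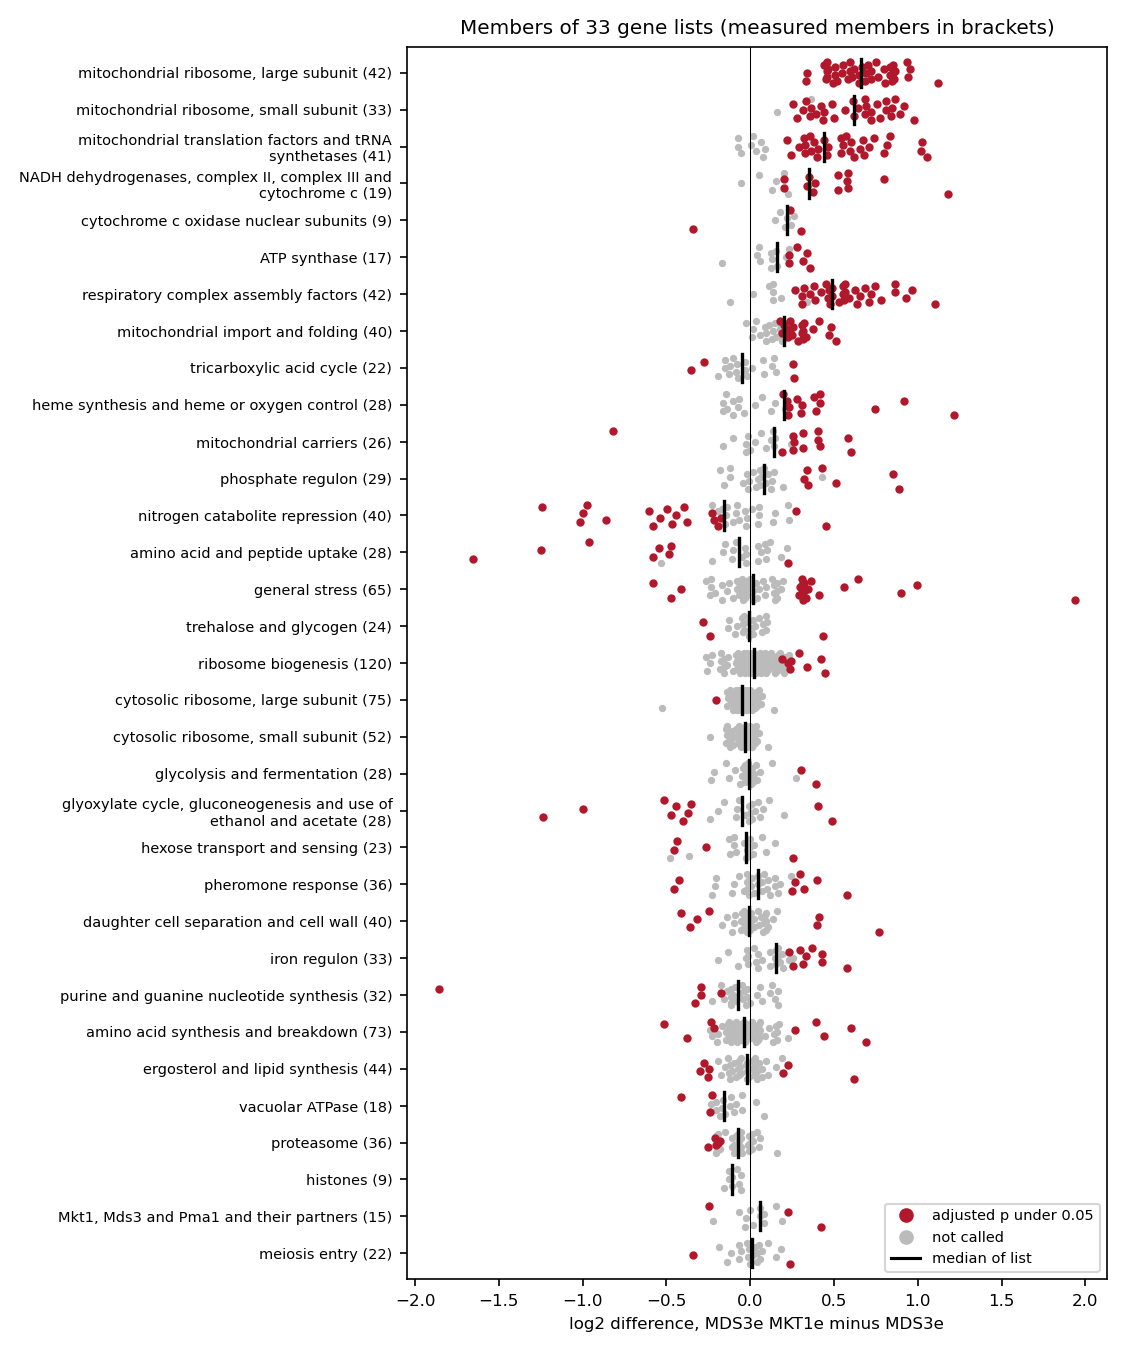
Log2 differences, MDS3e MKT1e minus MDS3e, of the measured members of 33 gene lists, 1 point per gene, red where the adjusted p was under 0.05 and grey otherwise, with a black bar at each list's median. The mitochondrial ribosome lists lie to the right of 0 (medians 0.66 and 0.62), the nitrogen catabolite repression list has a tail to the left, and the cytosolic ribosome lists lie around 0.

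Many genes for poor nitrogen sources fell. Nitrogen catabolite repression holds down genes for the use of poor nitrogen sources while good ones are present, through GATA-type activators and repressors. Of 40 measured genes under this control 17 fell, 2 rose and 21 did not pass, with a median of -0.16, and 13 to 15 fell with 1 of the 4 arrays left out. DAL5, the allantoate permease, had log2 levels of 7.75 and 7.63 in MDS3e MKT1e cells, against 9.01 and 8.87 in MDS3e cells, a fall of 1.25 ± 0.07. DAL4, the allantoin permease, had 4.99 and 4.98 in MDS3e MKT1e cells and 6.02 and 5.98 in MDS3e cells. DAL7, a malate synthase of the same pathway, had 8.72 and 8.92 in MDS3e MKT1e cells and 9.81 and 9.83 in MDS3e cells. In each the MDS3e MKT1e arrays were the lower pair, by 1.02 for DAL4 and 1.00 for DAL7. DAL80, a GATA repressor of the group, fell by 0.98 ± 0.12, with 8.03 and 7.63 in MDS3e MKT1e cells against 8.80 and 8.81 in MDS3e cells. The allantoin enzymes DAL2 and DAL1 fell by 0.86 and 0.61, the vacuolar peptidase gene CPS1 by 0.54, the proline oxidase gene PUT1 by 0.50 and the general amino acid permease gene GAP1 by 0.38. MEP3, a low-affinity ammonium permease, rose by 0.45 ± 0.05, with 8.05 on both MDS3e MKT1e arrays and 7.63 and 7.55 in MDS3e cells. URE2, which holds the activator Gln3 in the cytoplasm, rose by 0.27, a call kept in 1 of the 4 runs with an array left out. The activator genes GLN3 and GAT1 did not pass, with differences of 0.23 (adjusted p = 0.12) and -0.02 (adjusted p = 0.82).

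Some genes for uptake of amino acids and peptides were lower. Of 28 genes 7 fell, 1 rose and 20 did not pass, with a median of -0.07. Besides DIP5 and OPT2, PTR2, the di- and tripeptide transporter, fell by 0.96 ± 0.09, with 4.91 and 4.75 in MDS3e MKT1e cells against 5.92 and 5.67 in MDS3e cells. OPT1, which imports glutathione and oligopeptides and is also in the nitrogen list, fell by 0.58, and the methionine permease gene MUP1 by 0.55. TAT2, a tryptophan permease, rose by 0.23, a call lost whichever of the 4 arrays was left out. Amino acid synthesis showed no common direction, with 5 of 73 genes higher (6.85%) and 4 lower (5.48%), against 11% and 6.24% of all genes tested. With 1 of the 4 arrays left out, 3 to 4 of these 73 were higher and 1 to 4 lower. AGX1, which makes glycine from glyoxylate, rose by 0.69 ± 0.12 and MET13, of the methionine branch, by 0.60 ± 0.05. SER3, the first enzyme of serine synthesis, fell by 0.51 ± 0.08.

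Part of the phosphate regulon was higher in MDS3e MKT1e cells. The phosphate regulon is switched on by the factor Pho4 when phosphate runs short, and supplies transporters, secreted phosphatases and the machinery of polyphosphate. Of 29 measured genes 7 rose and none fell, with a median of 0.08, and 4 or 5 rose with 1 of the 4 arrays left out. PHO5, the main secreted acid phosphatase, had 9.03 and 9.05 in MDS3e MKT1e cells, against 8.18 and 8.12 in MDS3e cells, a rise of 0.89 ± 0.08 (adjusted p = 3.7e-05). PHM6 had 7.90 and 8.08 in MDS3e MKT1e cells and 7.15 and 7.12 in MDS3e cells, and rose by 0.85 ± 0.11. The phosphate transporter gene PHO89 was at 9.18 and 9.24 in MDS3e MKT1e cells and at 8.68 and 8.71 in MDS3e cells. For these genes every array of both genotypes stood above all MKT1e and Ancestral arrays: PHO89, for one, was at 6.45 and 6.39 in MKT1e and at 6.04 and 5.66 in Ancestral. PHO89 rose by 0.51, PHO81, an inhibitor of the kinase that keeps Pho4 inactive, by 0.43, the nucleotide phosphatase gene PHM8 by 0.34, and the polyphosphate synthesis genes VTC4 and VTC3 by 0.34 and 0.32. The call of PHM8 was kept in 2 of the 4 runs with an array left out, and those of VTC4 and VTC3 in none. SPL2, a regulator of low-affinity phosphate uptake, was 0.43 higher without passing (adjusted p = 0.061), the high-affinity transporter gene PHO84 0.12 higher (adjusted p = 0.42), and PHO4 differed by -0.01. Without MDS3e, MKT1e gave 2 list members higher and 5 lower than in Ancestral, with a median of -0.02. PHO89 was 1 of the 2, at 0.57 higher, so its rise was not limited to cells with MDS3e. Only 1 list member, PHO5, had effects that differed between the backgrounds at an adjusted p under 0.05.

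**Figure D3:**
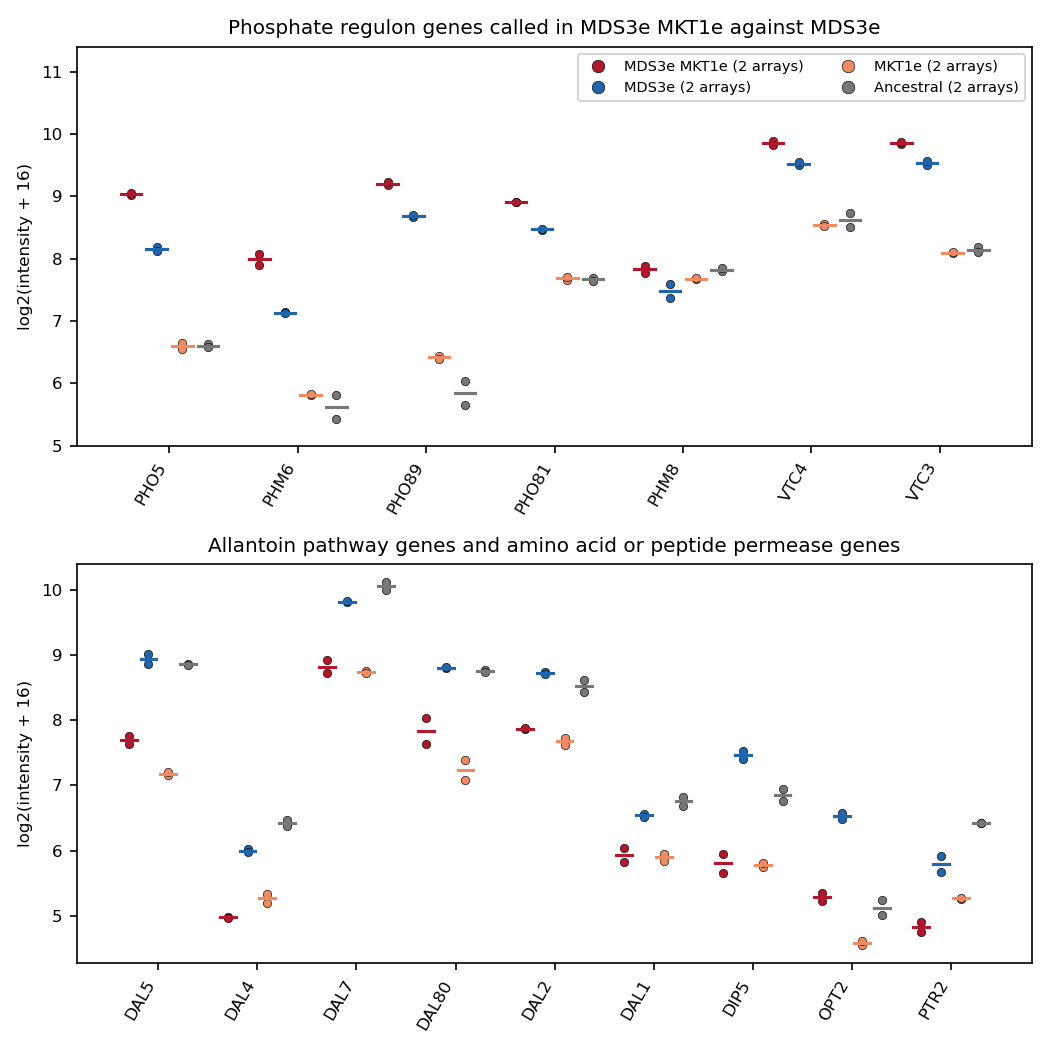
Log2 levels of the 7 called phosphate regulon genes (top) and of 9 genes of the allantoin pathway and of amino acid or peptide uptake (bottom) in MDS3e MKT1e, MDS3e, MKT1e and Ancestral, left to right. Points are arrays and bars are means of 2 arrays. PHO5 was 0.89 higher in MDS3e MKT1e than in MDS3e and had a difference of -0.01 between MKT1e and Ancestral, while DAL5 was lower with MKT1e in both backgrounds (-1.25 and -1.67).

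Most stress genes did not pass the test, and those called mostly rose. Of 65 general stress genes 17 rose (26.2%) and 3 fell (4.62%), against 11% and 6.24% of all genes tested. The other 45 were not called, and the list's median was 0.02, or -0.01 when arrays were centred on their medians. With 1 of the 4 arrays left out, 7 to 12 rose and 3 or 4 fell. After YRO2, the largest rises were HSP26 (0.99), the secreted glycoprotein gene YGP1 (0.90) and the catalase gene CTT1 (0.64). HSP26 had 7.98 and 7.72 in MDS3e MKT1e cells, against 6.82 and 6.89 in MDS3e cells, and YGP1 had 9.52 and 9.35 in MDS3e MKT1e cells and 8.50 and 8.58 in MDS3e cells. The mitochondrial chaperone gene HSP78 rose by 0.56 and DDR2 by 0.36, calls kept in 2 and 3 of the 4 runs with an array left out. HSP12, a bright membrane-associated stress gene, was at 10.59 and 10.51 in MDS3e MKT1e cells and at 10.58 and 10.65 in MDS3e cells, which overlapped. SPG4, a gene of stationary phase survival, and the acetaldehyde dehydrogenase gene ALD4 fell by 0.58 and 0.47. The remaining fall was that of HSP30, by 0.41, which lies in the stretch on chromosome III. Few genes of reserve carbohydrates were called: of 24 trehalose and glycogen genes, GAC1, a regulatory subunit of the phosphatase that activates glycogen synthesis, rose by 0.44, and PGM1 and GLC3 fell by 0.28 and 0.24. All of these reserve calls were lost without at least 1 of the 4 arrays.

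Genes for the use of ethanol, acetate and other non-sugar carbon were mostly uncalled, and those called were mostly lower. Of 28 genes of the glyoxylate cycle, gluconeogenesis and ethanol or acetate use, 8 fell and 2 rose, with a median of -0.05. ADH2 led them, and the activator gene ADR1, which turns on ADH2 when glucose is gone, fell by 0.37 ± 0.10 (adjusted p = 0.029), a call lost whichever of the 4 arrays was left out. ATO3, a putative ammonium exporter of the acetate transporter family, fell by 0.52, the malic enzyme gene MAE1 by 0.40 and the aldehyde dehydrogenase gene ALD2 by 0.44, while ACH1, which handles acetyl-CoA and acetate, rose by 0.49 ± 0.08. DAL7, ALD4 and PYC1 complete the 8 and were given above. The lactate permease gene JEN1 rose by 0.40, a call kept in 1 of the 4 runs with an array left out. Glycolysis and fermentation showed 2 rises in 28 genes, ADH5 (0.39) and TDH1 (0.31, a call kept in 1 of those 4 runs), and no falls. Of 23 hexose transport and sensing genes 3 fell and 1 rose. The glucose-induced repressor gene MIG2 fell by 0.44 ± 0.08, the transporter gene HXT3 by 0.45 ± 0.13 and the glucose sensor gene RGT2 by 0.26, the calls of HXT3 and RGT2 each being kept in 1 of those 4 runs. The transporter gene HXT4 rose by 0.26 (adjusted p = 0.026), a call kept in none of them.

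Of 32 genes of purine and guanine nucleotide synthesis 5 fell, none rose and 27 did not pass the test, and 3 or 4 fell with 1 of the 4 arrays left out. They included IMD2, whose probe set may read its relatives, and IMD3 and IMD4, which fell by 0.30 and 0.33. IMD3 had 10.11 and 10.10 in MDS3e MKT1e cells, against 10.39 and 10.42 in MDS3e cells, and IMD4 had 8.70 and 8.76 in MDS3e MKT1e cells and 9.08 and 9.04 in MDS3e cells. ADE2, of the shared purine pathway, fell by 0.29 and kept its call in 2 of the 4 runs with an array left out, and the purine permease gene FCY2 fell by 0.18, a call kept in none of them.

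Iron regulon genes rose in part. These genes are turned on by Aft1 when iron is scarce. Of 33 genes 9 rose and none fell, with a median of 0.15, and 4 to 7 rose with 1 of the 4 arrays left out. TIS11, whose product speeds decay of mRNAs for iron-using proteins, had 5.79 and 5.74 in MDS3e MKT1e cells, against 5.23 and 5.15 in MDS3e cells, and rose by 0.58 ± 0.09. The biotin transporter gene VHT1 rose by 0.43 ± 0.05. The siderophore transporter genes ENB1 and ARN1 and the cell wall gene FIT3 rose by 0.43, 0.33 and 0.30, the call of ENB1 being kept in 1 of the 4 runs with an array left out and that of ARN1 in none. In MKT1e against Ancestral the same list had 5 genes higher and 5 lower.

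In the remaining lists most genes did not pass the test. Of all genes tested 11% were higher and 6.24% lower, and several of these lists had shares near or below those. Of 36 pheromone response genes 6 rose and 2 fell, or 3 to 5 and 0 to 1 with 1 of the 4 arrays left out. The agglutinin gene AGA1 rose by 0.58 ± 0.07, with 7.72 and 7.86 in MDS3e MKT1e cells against 7.23 and 7.20 in MDS3e cells, while FUS1, needed for cell fusion, did not pass at 0.15 (adjusted p = 0.27). Of 40 genes of daughter cell separation and the cell wall 3 rose and 4 fell, or 1 to 2 and 2 to 3 in the same runs. GSC2, the alternative glucan synthase, rose by 0.77 ± 0.10 and the mannoprotein gene CWP1 fell by 0.41 ± 0.06. Ribosome biogenesis had 8 of 120 genes higher (6.67%, below the share of all genes), among them MAK16 (0.45) and NOG1 (0.42). The median of that list was 0.02 and turned to -0.01 under median centring, and 2 to 4 were higher with 1 of the 4 arrays left out. In ergosterol and lipid synthesis, INO1, which makes inositol phosphate, was called 0.62 higher and kept the call in 1 of the 4 runs with an array left out, and ERG6 and ERG2 were among 4 of 44 genes that fell, by 0.30 and 0.25, each keeping its call in 2 of those runs. That list had 3 genes higher (6.82%) and 4 lower (9.09%), or 0 to 2 higher and 1 to 3 lower with an array left out. The vacuolar ATPase had 3 of 18 genes lower (1 to 3 with an array left out), with VMA13 falling by 0.41 ± 0.07. The proteasome had 5 of 36 lower, by 0.18 to 0.25, and 0 to 2 with an array left out: BLM10, PRE9 and RPN11 each kept the call in 1 of the 4 runs, and RPT2 and UMP1 in none. No histone gene of 9 passed the test. Of 22 genes of meiosis entry, the master regulator gene IME1 fell by 0.34 ± 0.06, with 5.57 and 5.54 in MDS3e MKT1e cells against 5.86 and 5.94 in MDS3e cells, and RIM4 rose by 0.24, a call kept in 1 of the 4 runs with an array left out.

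The stretch on chromosome III is described by gene order in the R64 assembly annotation, since no source used here names the genome build of the array. Its ends were chosen from these same values, so the counts within it describe the stretch and do not test it. Of 11 consecutive measured genes from MAK32 to RHB1, 9 were lower in MDS3e MKT1e cells, with intensity ratios of MDS3e MKT1e over MDS3e from 0.485 to 0.843. MAK31, a subunit of an N-terminal acetyltransferase, had 8.25 and 8.35 in MDS3e MKT1e cells, against 9.16 and 9.24 in MDS3e cells. NPP1, a nucleotide pyrophosphatase, had 6.44 and 6.55 in MDS3e MKT1e cells and 7.37 and 7.35 in MDS3e cells. RHB1, a small GTPase of the Rheb family, had 7.01 and 7.08 in MDS3e MKT1e cells and 7.89 and 7.68 in MDS3e cells. These genes fell by 0.89 ± 0.06, 0.86 ± 0.06 and 0.74 ± 0.07. PET18, YCR023C and MAK32 fell by 0.79, 0.77 and 0.70, and HSP30, the heat shock protein that restrains the proton pump, by 0.41. HTL1, a chromatin remodelling subunit, fell by 0.85 ± 0.19, a call kept in 1 of the 4 runs with an array left out, and PMP1, a small regulator of the proton pump, fell by 0.24, a call lost in all 4 runs. SLM5 at -0.08 and YCR024C-B at -0.27 (adjusted p = 0.050) did not pass the test.

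The rest of the genome had no window this low. Over 5321 windows of 9 neighbouring genes the lowest median difference was -0.77, in this stretch, against -0.27 for the lowest window outside it and 0.31 for the highest anywhere. The 8 measured genes on each side ranged from -0.43 to 0.12. Of these 16 only SRD1, next to MAK32, was called, at -0.43, and it kept the call in 2 of the 4 runs with an array left out. SRD1 was also called lower in MKT1e than in Ancestral cells, at -0.33 (adjusted p = 0.031), and differed by -0.05 between MDS3e MKT1e and MKT1e cells. Medians of whole chromosomes ran from -0.05 to 0.01. Set against MKT1e instead of MDS3e, 9 of the 11 were lower in MDS3e MKT1e cells, this time including SLM5 (-0.86) and YCR024C-B (-0.63) but neither HTL1 nor PMP1. That comparison reuses the MDS3e MKT1e arrays from which the stretch was chosen, so it is not independent of the first. MAK31 was at 8.98 and 8.91 in MKT1e, at 8.99 on both Ancestral arrays and at 8.94 and 8.90 in PMA1e MKT1e, so both MDS3e MKT1e arrays stood below all the others. The cause of the difference in this stretch was not tested.

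**Figure D4:**
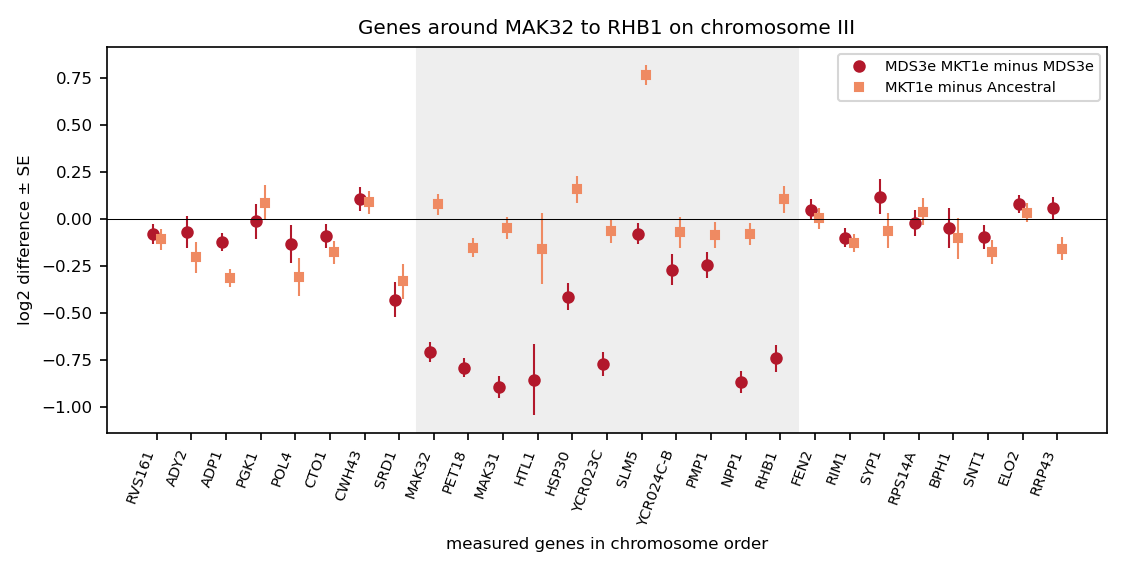
Log2 differences ± SE for consecutive measured genes on chromosome III, in the order of the R64 annotation, with the stretch from MAK32 to RHB1 shaded. Red circles are MDS3e MKT1e minus MDS3e and orange squares MKT1e minus Ancestral (2 arrays per genotype). The red circles drop to about -0.70 to -0.89 for most shaded genes. The orange squares of the shaded genes lie between -0.16 and 0.16, except for SLM5 at 0.77. Outside the shading the lowest orange square is that of SRD1, at -0.33.

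The effect of MKT1e with MDS3e was then set against its effect without MDS3e, in MKT1e against Ancestral, where 642 genes (11.8%) were higher and 462 (8.48%) lower, 1104 (20.3%) in all. These comparisons share no arrays, although they share the pooled spread. Across 5449 genes, which are not independent, the differences correlated with Pearson's r of 0.81 and Spearman's rho of 0.72. Calls in the same direction in both numbered 638, of which 435 were higher and 203 lower, which is 68.1% of the calls with MDS3e and 57.8% of those without it, and 3 genes were called in opposite directions. MRPL4 rose by 1.12 in either background, MTO1 by 1.02, and YHB1 by 1.22 with and 1.24 without MDS3e. YRO2 rose by 1.94 with and 2.00 without it, although its levels in MKT1e, 8.65 and 8.51, and in Ancestral, 6.62 and 6.55, were higher than in the matching genotypes with MDS3e.

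The difference between the effects, the effect with MDS3e minus the effect without it, was tested and is called the interaction. Each genotype was taken as the labelled strain, so an interaction of the alleles cannot be told apart from other differences between the strains. The interaction had a median standard error of 0.09. It was called in 21 genes (0.385%), 4 (0.0734%) with a positive and 17 (0.312%) with a negative value. An unadjusted p under 0.05 was found for 387 of 5449 genes, a limit that a share of about 0.05 of genes with equal effects would also pass. With 1 of the 8 arrays left out, 13 to 24 were called, with 13 without MDS3e replicate 2 and 13 without MDS3e MKT1e replicate 2. Of the 21, 7 lie in the stretch on chromosome III: MAK31, RHB1, SLM5, NPP1, MAK32, YCR023C and PET18, by -0.85 to -0.64. SLM5 rose by 0.77 in MKT1e against Ancestral, with 8.28 and 8.22 in MKT1e and 7.52 and 7.44 in Ancestral cells, and was called in neither direction with MDS3e.

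Outside that stretch, TKL2, a minor transketolase of the pentose phosphate pathway, had the most negative interaction, -1.13 (adjusted p = 0.0033). It had 4.63 and 4.62 in MDS3e MKT1e cells and 4.49 and 4.44 in MDS3e cells, close to the background limit, against 6.68 and 6.52 in MKT1e and 5.21 and 5.41 in Ancestral cells. CYC1 rose in both backgrounds but less with MDS3e, by 1.18 with it and 1.94 without it, an interaction of -0.76 (adjusted p = 0.012). Its levels with MKT1e were close, 10.01 and 9.93 in MDS3e MKT1e and 9.98 and 9.99 in MKT1e, whereas with ancestral MKT1 they were 8.77 and 8.82 in MDS3e and 7.95 and 8.13 in Ancestral cells. IMD2 fell in both backgrounds and less with MDS3e, with differences of -1.86 with it and -2.80 without it, an interaction of 0.94 (adjusted p = 0.013). OPT2 fell more with MDS3e, with an interaction of -0.71 (adjusted p = 0.035). PHO5 changed with MKT1e in the presence of MDS3e but differed by -0.01 without it, an interaction of 0.90 (adjusted p = 0.0050). PHO5, TKL2 and all 7 genes of the chromosome III stretch kept their interaction call whichever of the 8 arrays was left out, CYC1 in 4 of the 8 runs, IMD2 in 5 and OPT2 in 1.

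**Figure D5:**
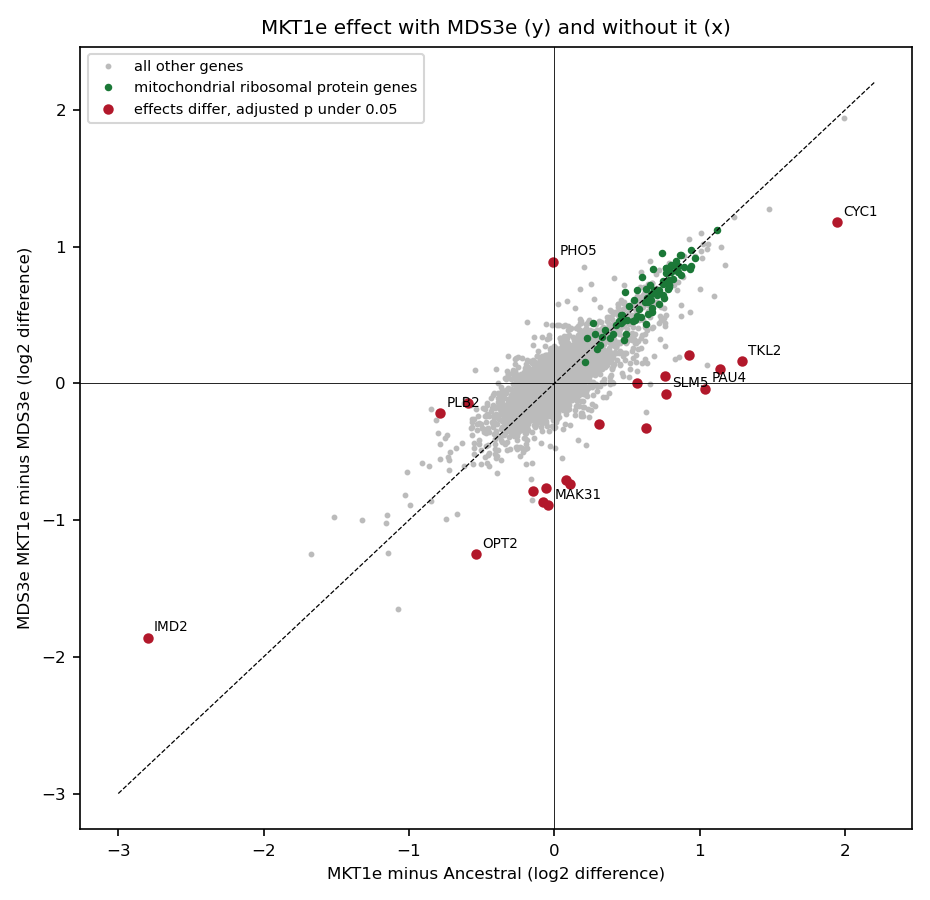
Log2 difference of each of 5449 genes in MDS3e MKT1e against MDS3e (y) and in MKT1e against Ancestral (x), 2 arrays per genotype, with a dashed line of equal effects. Green points are mitochondrial ribosomal protein genes and red points the 21 genes whose effects differed with an adjusted p under 0.05. Green points follow the line up to MRPL4 at 1.12 on both axes, and the red points below the line include CYC1, TKL2 and MAK31.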

How the data were processed

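RNA of 10 cultures (5 genotypes, 2 each) was hybridised to Affymetrix arrays. The deposited table holds 1 intensity per probe set and array; per the submitters' processing notes the authors used Affymetrix Expression Console, with no version, summarisation method or scaling named in the sources used here. The values ran from 0.00517 to 3479 and so were read as linear, with medians of 9.50 to 10.7 on the 4 arrays compared. No sequence is printed, since none came with the sources used here.

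Of 10928 probe sets 5498 named 1 S. cerevisiae gene, 1746 a gene of another species, 1 several and 3683 none. The brightest probe set stood for each of 47 genes with several, leaving 5449 genes, of which 114 have probe sets that may read related genes. A pseudocount of 16 was added before log2. The background limit, 4.20 (an intensity of 2.33), was the 95th percentile of the other-species probe sets.

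All 10 arrays entered a linear model with a mean for each genotype in limma 3.58.1 (R 4.3.3), variances were moderated over genes, and contrasts gave each comparison and the interaction. Replicates are separate cultures, so p-values measure the spread between cultures of a strain. In runs without an array, the remaining array of that genotype was taken to vary like the other genotypes. The fit was also run on simulated data with independent noise, in which the genotypes were alike except for a set of genes changed in MDS3e MKT1e. These data differ from that setting, and no conclusion is drawn from the run.

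The 33 gene lists hold 1190 symbols, of which 1162 were measured. Members and lists were chosen with earlier results of these data known. The text names the evolved genes, the 12 largest rises and 12 largest falls, up to 4 members per list and direction, the called interactions up to 8 in each direction by size (4 positive and 8 negative), and further list members as examples. Alternatives were median centring, quantile and cyclic loess normalization, pseudocounts of 1 and 64, a filter on genes below background, a fit without shared probe sets, averages over a gene's probe sets, trended robust variances, only the compared genotypes, a replicate block and leaving out each array. Nothing in the labels ties a replicate number to a shared culture day or batch, and the numbers were not used as pairs.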

Additional observations from a re-analysis of the deposited data

Results flagged for a closer look

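For 17 named genes the effect of MKT1e with MDS3e (MDS3e MKT1e minus MDS3e) differed from its effect without MDS3e (MKT1e minus Ancestral) by limma's test of the interaction at an adjusted p under 0.05. Of these, 7 lie in the stretch on chromosome III: MAK31 (-0.85), RHB1 (-0.84), SLM5 (-0.84), NPP1 (-0.79), MAK32 (-0.78), YCR023C (-0.71) and PET18 (-0.64), each value being the effect with MDS3e minus the effect without it on the log2 scale. PHO5 had 0.90, TKL2 -1.13, CYC1 -0.76, IMD2 0.94 and OPT2 -0.71, as described above.

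The other 5 were not described above. PLB2, a phospholipase B, had 0.56 (adjusted p = 0.011): it was at 8.12 on both MDS3e MKT1e arrays and at 8.32 and 8.36 in MDS3e cells, and at 7.55 and 7.66 in MKT1e and 8.41 and 8.37 in Ancestral cells. It was lower with MKT1e in both backgrounds, with differences of -0.22 with MDS3e (adjusted p = 0.022), a call lost whichever of the 4 arrays of that comparison was left out, and of -0.78 without it. ANB1, the hypoxic isoform of translation factor eIF5A, had 0.45 (adjusted p = 0.048), with differences of -0.14 with MDS3e and -0.60 without it, and its call was lost whichever of the 8 arrays was left out. PAU4, a seripauperin gene whose probe set may read its relatives, had -1.08 (adjusted p = 0.034), with overlapping levels of 6.28 and 6.51 in MDS3e MKT1e cells and 6.44 and 6.42 in MDS3e cells.

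YGR109W-A, an open reading frame with a shared probe set, had -1.03 (adjusted p = 0.0014), with levels of 5.27 and 5.40 in MDS3e MKT1e cells and 5.26 and 5.21 in MDS3e cells, and of 6.32 and 6.17 in MKT1e and 5.17 and 5.04 in Ancestral cells. YLL066W-B, also with a shared probe set, had -0.96 (adjusted p = 0.0014) and opposite directions, a difference of -0.33 with MDS3e, a call kept in 3 of the 4 runs with an array of that comparison left out, and of 0.63 without it. The interaction calls of YGR109W-A and YLL066W-B held whichever of the 8 arrays was left out, that of PLB2 in 3 and that of PAU4 in 2 of the 8 runs.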

How the results depend on the processing

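No named gene that was called, and no gene with a called interaction, changed direction in the alternatives traced for it. Directions of the other called genes were not compared one by one. Leaving out any 1 of the 8 arrays of the compared genotypes gave 329 to 662 genes higher (597 with all arrays) and 132 to 426 lower (340), 13 to 24 interaction calls (21), 229 to 380 calls among list members (344) and 91 to 141 named genes still called (141). The lowest of these counts came without MDS3e replicate 2 (13 interaction calls also without MDS3e MKT1e replicate 2). The number of genes changed at least 2-fold was 15 with a pseudocount of 16, 34 with 1 and 6 with 64. Other settings gave 515 to 616 higher and 289 to 489 lower. With the replicate block 591 genes were higher, 345 lower and 22 had an interaction call. Differences between replicates correlated at -0.17 between MDS3e MKT1e and MDS3e at -0.20 to -0.14 between MDS3e MKT1e and each of the other 4 genotypes and at -0.01 to 0.39 among those 4 (0.39 between MKT1e and Ancestral), so samples with the same number did not all deviate together, and whether the numbers mark a shared batch cannot be told from 2 replicates. A block with the numbers of MDS3e MKT1e exchanged, chosen after seeing the data, gave 665 higher, 463 lower and 34 interaction calls. Of 141 called named genes, 83 kept their call whichever of the 4 arrays was left out and 115 under every alternative of another kind. Array number and the floor of dim probes limit small changes, and the cause of lost calls was not tested.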

Other observations

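Several groups outside the lists above were looked at after their values had been seen. Genes for mitochondrial DNA and RNA rose alongside the mitochondrial ribosome: of 21 measured 13 rose and 1 fell, with a median of 0.39. SUV3, a helicase that degrades mitochondrial RNA, had 7.77 and 7.80 in MDS3e MKT1e cells, against 7.10 and 7.04 in MDS3e cells, and rose by 0.72 ± 0.09. MTF1 and RPO41, the specificity factor and the RNA polymerase of mitochondria, rose by 0.45 and 0.39. The fall was that of MIP1, the mitochondrial DNA polymerase, by 0.39, a call kept in 1 of the 4 runs with an array left out. ABF2, which packages mitochondrial DNA, differed by -0.09 ± 0.06 without passing (adjusted p = 0.30). The mitochondrial proteases PIM1 and AFG3 rose by 0.42 and 0.41, the inorganic pyrophosphatase gene PPA2 by 0.71 and the matrix protein gene MAM33 by 0.93.

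Messenger RNA decay genes moved in both directions, and most did not pass the test. Of 24 measured, 3 (EDC2, CCR4 and CAF40) rose, 4 fell and 17 did not pass, with a median of -0.01. Over all genes tested 11% were higher and 6.24% lower. The calls of EDC2, CCR4 and CAF40 were not traced in the runs with an array left out. The helicase gene DHH1, which acts in decapping, had 7.93 and 7.95 in MDS3e MKT1e cells against 8.32 and 8.44 in MDS3e cells and fell by 0.44 ± 0.07, and the exonuclease gene XRN1 fell by 0.37 ± 0.05. LSM7 fell by 0.56 ± 0.12, a call kept in 2 of the 4 runs with an array left out. Of 18 genes of fatty acid oxidation in peroxisomes 5 fell and 2 rose: POX1 and SPS19 fell by 0.46 and 0.60, and the fatty acid transporter gene PXA1 rose by 0.50. Of 11 DNA damage response genes HUG1 and RNR3 fell by 0.53 and 0.47 and none rose. URA8, a CTP synthase, fell by 0.89 ± 0.09, with 7.55 and 7.64 in MDS3e MKT1e cells and 8.41 and 8.56 in MDS3e cells.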
